A study of Mus musculus with 6 samples.

Results

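Oxidative phosphorylation is carried out by 5 protein complexes of the inner mitochondrial membrane. The genes described here are nuclear genes that encode their subunits, together with the cytochrome c genes. They were chosen by symbol, so subunit genes with other symbols are not included. They were taken from the table of 29333 genes as the protein-coding rows whose symbols begin with Nduf followed by a, b, c, s or v and a digit, with Uqcr, with Cox and a digit between 4 and 8, or with Atp5, and the symbols Sdha to Sdhd, Cycs and Cyct. This gave 88 genes, and 9 further rows with matching symbols were left out because the table does not type them as protein-coding. Of the 88 genes, 37 belong to complex I, 4 to complex II, 8 to complex III, 20 to complex IV and 17 to complex V, and 2 encode cytochrome c. Ndufa4 and Ndufa4l2 were counted with complex IV, where the NDUFA4 protein is found.

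Whole testes of Hsf5 knockout mice, Hsf5-/- in the design text, were compared with control testes at postnatal day 16 by RNA sequencing. The labels call the controls wild type, but by the design text some may be Hsf5+/-. HSF5 belongs to the heat shock transcription factor family, and spermatocytes express it. Each group has 3 samples in the labels. The libraries analysed were knockouts 1 and 3 and controls 1 and 2, while knockout 2 and control 3 were not analysed here. Nothing in the labels says that each sample came from a separate animal or how the knockout allele was made, so the p-values cover only the spread among these samples, which may be technical.

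Complex I takes electrons from NADH and complex II from succinate, complex III passes them to cytochrome c, and complex IV hands them to oxygen, while complex V uses the resulting proton gradient to make ATP. Most subunits are made from 1 gene in every tissue, but a few have copies that are used in particular tissues. In the male germ line, COX6B2, COX7B2 and COX8C are the testis versions of complex IV subunits, and Cyct encodes the testis form of cytochrome c, which appears in spermatocytes. Their counterparts in other cells are Cox6b1, Cox7b, Cox8a and Cycs.

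The upstream sequences of the isoform pairs are shown because the testis copies fell in these libraries while their counterparts did not. RefSeq (GRCm38.p6) gave a window for 70 of the 88 genes, and the 250 bases before the annotated start were used. Among the testis isoforms, Cox6b2 (chr7:4753095-4753344, minus strand), Cox7b2 (chr5:71548206-71548455, minus strand) and Cyct (chr2:76360454-76360703, minus strand) had one. The coordinates are those of that build, while the submitters' processing notes name mm39. The windows of the counterparts Cox6b1 (chr7:30626115-30626364, minus strand), Cox7b (chrX:106015450-106015699, plus strand), Cox8a (chr19:7217617-7217866, minus strand) and Cycs (chr6:50566570-50566819, minus strand) are given for comparison. Each is written 5′ to 3′ on the gene's strand, and capitals mark a match to 1 of the 6 motifs described after the sequences. Bases just after the annotated start were found in the gene's GENCODE M21 transcripts, except for Cox7b2 and Cycs. Positions from the start are less certain for those genes.
Cox6b2: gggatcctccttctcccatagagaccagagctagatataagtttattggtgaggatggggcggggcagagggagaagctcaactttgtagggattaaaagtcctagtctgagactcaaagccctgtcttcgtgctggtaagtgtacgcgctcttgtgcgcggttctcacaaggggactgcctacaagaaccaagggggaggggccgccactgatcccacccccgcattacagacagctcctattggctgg
Cox7b2: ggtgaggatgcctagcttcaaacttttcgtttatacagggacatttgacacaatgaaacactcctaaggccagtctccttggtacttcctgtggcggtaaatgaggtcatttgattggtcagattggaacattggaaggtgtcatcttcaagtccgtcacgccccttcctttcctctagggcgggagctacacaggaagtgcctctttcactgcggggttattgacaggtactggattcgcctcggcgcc
Cyct: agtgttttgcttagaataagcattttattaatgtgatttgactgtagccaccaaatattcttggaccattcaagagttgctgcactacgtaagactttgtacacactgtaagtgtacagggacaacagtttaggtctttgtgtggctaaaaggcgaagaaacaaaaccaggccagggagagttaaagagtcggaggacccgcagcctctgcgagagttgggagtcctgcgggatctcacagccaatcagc
Cox6b1: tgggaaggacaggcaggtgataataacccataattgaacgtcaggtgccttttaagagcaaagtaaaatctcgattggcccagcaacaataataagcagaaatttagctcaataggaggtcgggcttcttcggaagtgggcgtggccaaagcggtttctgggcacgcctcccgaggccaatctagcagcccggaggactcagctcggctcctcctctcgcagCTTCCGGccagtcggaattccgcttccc
Cox7b: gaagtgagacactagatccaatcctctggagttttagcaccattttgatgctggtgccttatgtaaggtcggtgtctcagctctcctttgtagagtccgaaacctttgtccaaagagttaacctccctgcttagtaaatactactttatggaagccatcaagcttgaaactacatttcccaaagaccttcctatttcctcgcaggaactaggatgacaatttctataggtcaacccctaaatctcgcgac
Cox8a: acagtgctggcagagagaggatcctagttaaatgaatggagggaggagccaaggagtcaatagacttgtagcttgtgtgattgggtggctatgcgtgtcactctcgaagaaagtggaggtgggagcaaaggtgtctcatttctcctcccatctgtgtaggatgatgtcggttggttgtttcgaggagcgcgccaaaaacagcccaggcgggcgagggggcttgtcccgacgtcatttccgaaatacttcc
Cycs: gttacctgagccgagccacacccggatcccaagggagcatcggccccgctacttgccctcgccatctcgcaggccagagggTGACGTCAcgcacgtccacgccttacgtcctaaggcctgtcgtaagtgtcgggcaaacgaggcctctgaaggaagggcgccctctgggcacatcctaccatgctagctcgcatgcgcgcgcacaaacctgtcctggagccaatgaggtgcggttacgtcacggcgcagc

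The motifs searched on both strands were the NRF1 motif, CCGGAAG of the ETS factor GABP, the cAMP response element TGACGTCA, the heat shock elements GAANNTTC and TTCNNGAA, and GTTGCCA, a site of the RFX family. NRF1 and GABP are known regulators of nuclear genes for the respiratory chain. None of the motifs was found in the 3 testis isoform windows or in those of Cox7b and Cox8a. CTTCCGG, the reverse complement of the GABP motif, was found in the Cox6b1 window at positions -28 to -22 from the start, and TGACGTCA was found in the Cycs window at positions -169 to -162. Each was the only exact match in its window, so no printed match overlaps another. In the Cycs window, the unmarked stretch tcgcatgcgc differs from the NRF1 pattern by a single base. Near matches also occur in other windows, testis isoforms included. By a single base, caggaag in the Cox7b2 window differs from the GABP motif, and cgacgtca in the Cox8a window from the cAMP response element. Near matches were not counted. The search therefore does not show that a window lacks a site. The 71 windows of 66 ubiquitous subunit genes held the NRF1 motif in 19.7%, the GABP motif in 16.9% and the cAMP response element in 7.04%, against 3.74%, 6.91% and 1.55% of all 32851 windows. The heat shock motifs were found in 5.63% of the ubiquitous windows for either arrangement, against 6.69% (GAANNTTC) and 7.17% (TTCNNGAA) of all windows, and the RFX motif in 1.41% against 3.66%. CG dinucleotides numbered 8 in the Cox6b2 window, 9 in that of Cox7b2 and 6 in that of Cyct. The counterparts had 14 (Cox6b1), 5 (Cox7b), 11 (Cox8a) and 23 (Cycs). The ubiquitous windows held between 4 and 35 with a median of 15, against a median of 6 over all windows.

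Values are normalised read counts, which are reads per gene divided by 1 size factor per library. A gene was tested where its mean over the 4 libraries was at least 10, and was called where limma on log2(value + 1) gave a Benjamini-Hochberg adjusted p under 0.05 over all 17480 genes tested. Reads counted on the listed genes numbered between 16209093 and 18557898 per library. These sums are the library totals used in later scalings. Spearman correlations of the tested genes were 0.993 between the knockouts and 0.986 between the controls, and control 1 lay closer to knockout 1 (0.973) than control 2 did (0.947). Hsf5 stood at 1926 and 1602 in knockouts 1 and 3, against 2541 and 3147 in controls 1 and 2. Knockout testes thus kept 62.0% of the control level, and counts summed over a gene cannot tell an intact from a truncated transcript.

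All 4 testis isoforms fell in the knockout testes, and their ubiquitous counterparts did not. Cox8c, the testis version of the small complex IV subunit 8, had 937 and 662 normalised counts in knockouts 1 and 3, against 2851 and 4195 in controls 1 and 2. The knockout level was 22.7% of the control level, a log2 fold change of -2.13 (SE 0.20, limma Benjamini-Hochberg adjusted p = 0.000413). The groups were separate by a wide margin, and the higher control stood well above the other. Cox6b2, the testis version of a subunit on the intermembrane face of complex IV, had 1247 and 935 in the knockouts, against 2276 and 3309 in the controls, a log2 fold change of -1.34 (SE 0.18, limma Benjamini-Hochberg adjusted p = 0.00186).

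The other testis isoforms fell by less, and their controls lay closer together. Cyct, the testis cytochrome c, had 681 and 456 in knockouts 1 and 3, against 1179 and 1318 in controls 1 and 2, a log2 fold change of -1.16 (SE 0.18, limma Benjamini-Hochberg adjusted p = 0.00303). Cox7b2 had 958 and 722 in the knockouts, against 1528 and 1702 in the controls, a log2 fold change of -0.95 (SE 0.14, limma Benjamini-Hochberg adjusted p = 0.00243). In each of the 4 genes knockout 3 was the lowest library and control 2 the highest, and no knockout value reached a control value. The calls of Cox8c and Cox6b2 held without each library in turn, while without control 2 Cyct had a limma Benjamini-Hochberg adjusted p of 0.0948 and Cox7b2 of 0.076. The summed counts of the 4 genes were 3823 and 2775 in the knockouts, against 7834 and 10523 in the controls. In whole testes, fewer cells of a type and less RNA per cell cannot be told apart.

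**Figure D1:**
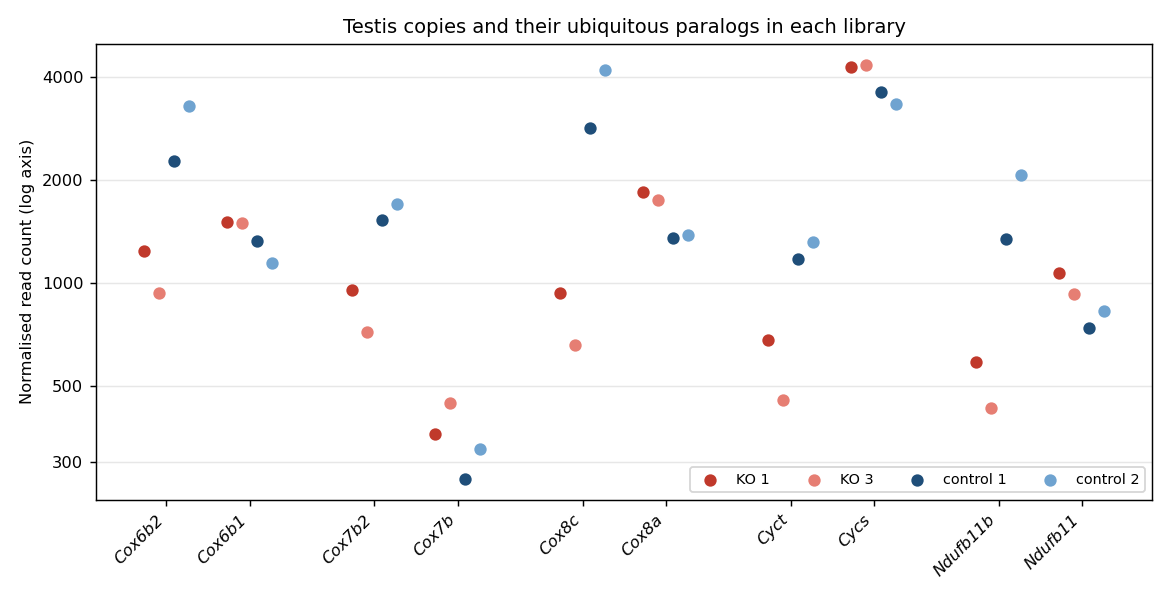
Normalised read counts (log axis) of the testis isoforms and their ubiquitous paralogs, 1 point per library, knockouts in red and controls in blue. Ndufb11b and Ndufb11 are also shown, a pair chosen after its values were seen, and Ndufb11b was not classed as a testis isoform. Each testis isoform had both knockouts below both controls, for example Cox8c with 937 and 662 against 2851 and 4195, and so had Ndufb11b. Each paralog had both knockouts above both controls.

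The ubiquitous counterparts lay above the controls in both knockouts. Cox8a had 1852 and 1756 in knockouts 1 and 3, against 1357 and 1383 in controls 1 and 2, a log2 fold change of 0.40 (SE 0.08, limma Benjamini-Hochberg adjusted p = 0.0138). Cycs, the cytochrome c of somatic cells, had 4277 and 4357 in the knockouts, against 3615 and 3349 in the controls, a log2 fold change of 0.31 (SE 0.07, limma Benjamini-Hochberg adjusted p = 0.0221). Both passed the test, but Cox8a lost its call without any 1 library (adjusted p between 0.0561 and 0.121) and Cycs without any 1 library other than control 1 (0.108 to 0.16). Cox6b1 had 1508 and 1501 in the knockouts, against 1326 and 1147 in the controls (log2 fold change 0.29, limma Benjamini-Hochberg adjusted p = 0.0851). Cox7b, which is X-linked, had 363 and 447 in the knockouts, against 269 and 329 in the controls (0.44, limma Benjamini-Hochberg adjusted p = 0.116). These last genes did not pass, although their groups did not overlap either. Scaled to the summed Sertoli cell markers, the log2 fold changes of the counterparts stayed above 0, at 0.17 for Cox8a, 0.09 for Cycs, 0.06 for Cox6b1 and 0.21 for Cox7b, and none was called.

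The ratio of a testis copy to its counterpart within a library does not depend on how libraries are scaled. Counts of Cox8c were 0.506 and 0.377 of those of Cox8a in knockouts 1 and 3, against 2.10 and 3.03 times in controls 1 and 2, a difference of -2.53 in the log2 ratio. The Cox6b2 to Cox6b1 ratio was 0.827 and 0.623 in the knockouts, against 1.72 and 2.88 in the controls, a difference of -1.63. For these pairs the copy with more counts was the ubiquitous gene in knockouts and the testis isoform in controls. The Cyct to Cycs ratio was 0.159 and 0.105 in the knockouts, against 0.326 and 0.394 in the controls (difference -1.47 in the log2 ratio). The Cox7b2 to Cox7b ratio was 2.64 and 1.62 in the knockouts, against 5.69 and 5.17 in the controls (difference -1.39). All 4 differences had an exact two-sided permutation p of 0.333, also after adjustment over the 4 pairs, which is the smallest p that 2 libraries against 2 allow.

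**Figure D2:**
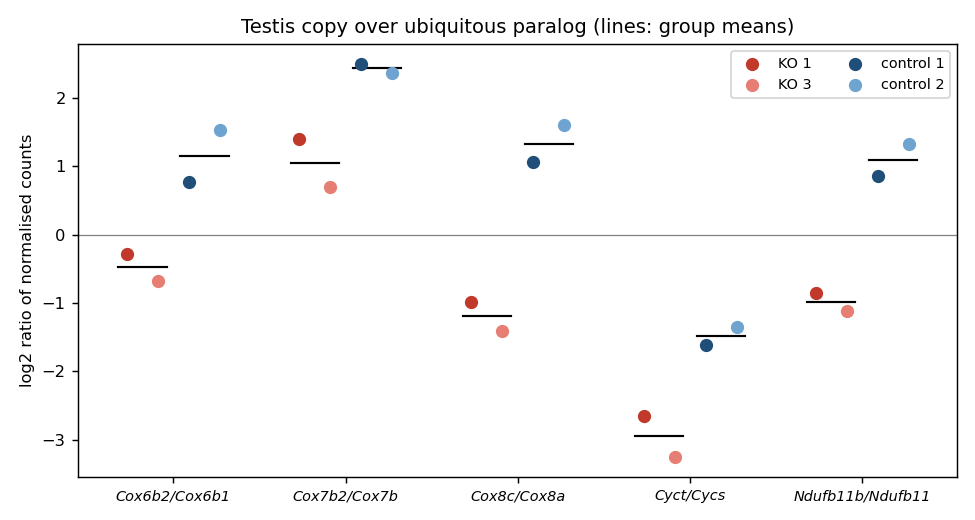
Log2 ratio of the normalised counts of a testis isoform over its ubiquitous paralog in each library, with lines at the group means. Knockouts are in red, left of controls in blue. The pair Ndufb11b over Ndufb11 is also shown. It was chosen after its values were seen, and Ndufb11b was not classed as a testis isoform. Both knockouts lie below both controls in each pair, and for Cox8c over Cox8a the means are -1.19 and 1.33.

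Levels of different genes were compared per length, with the median length of the basic coding transcripts of each gene in GENCODE M21. On that scale Cox8c made up 37.8% and 31.2% of the sum of Cox8c and Cox8a in knockouts 1 and 3, against 71.6% and 78.5% in controls 1 and 2. Cox6b2 made up 48.0% and 41.0% of its pair in the knockouts, against 65.7% and 76.3% in the controls. Cox7b2 remained the larger part of its pair, with 83.0% and 74.9% in the knockouts, against 91.3% and 90.5% in the controls. For cytochrome c the share of Cyct was 43.2% and 33.3% in the knockouts, against 60.9% and 65.2% in the controls. That share rests on the median length of 3123 bases for Cycs, against 655 for Cyct.

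Another copy moved as the testis isoforms did, and was chosen after its value was seen. Ndufb11b, on chromosome 15, is by its symbol a paralog of the X-linked complex I subunit gene Ndufb11. It had 590 and 431 normalised counts in knockouts 1 and 3, against 1348 and 2074 in controls 1 and 2, a log2 fold change of -1.73 (SE 0.21, limma Benjamini-Hochberg adjusted p = 0.00107). No single left-out library ended this call. Ndufb11 itself had 1071 and 934 in the knockouts, against 741 and 829 in the controls (log2 fold change 0.35, limma Benjamini-Hochberg adjusted p = 0.0695). The difference in the log2 ratio of the copies was -2.08 (exact two-sided permutation p = 0.333, the smallest possible). The sources used here do not say how reads shared by near-identical copies were counted, so the values of such copies, Cox5b-ps among them, are uncertain.

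Over all members, 10 fell and 6 rose of the 87 tested, with a median log2 fold change of -0.01. The members called lower were 11.5% and those called higher 6.90%, against 13.5% lower and 3.28% higher among all genes. Without the testis isoforms, 6 of 83 members fell (7.23%) and 6 rose (7.23%). The groups did not overlap in 53 members, with knockouts lower in 32 and higher in 21, while among all genes 31.9% were separate with knockouts lower and 29.8% with knockouts higher. The authors' deposited table has the same 10 members lower and the same 6 higher at an adjusted p under 0.05, where 11.3% of its genes were lower and 2.26% higher. The summed counts of the 78 ubiquitous genes were 170206 and 156233 in knockouts 1 and 3, against 164027 and 172016 in controls 1 and 2, and these ranges overlapped. The split of the calls depended on the scaling, with 7 lower and 14 higher by library totals and 33 lower and none higher when libraries were scaled to the summed Sertoli cell markers, where 0 members had an unadjusted p under 0.05 in the higher direction. Those scalings moved the median of all genes to 0.12 and -0.21, from 0.01 with the authors' factors. In knockout 1 the Sertoli sum of 180177 held 72450 from Clu and 26279 from Aard, so these genes weigh heavily in that scaling. Aard was itself called higher in the main fit. The 4 testis isoforms and Ndufb11b were lower under every scaling tried.

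**Figure D3:**
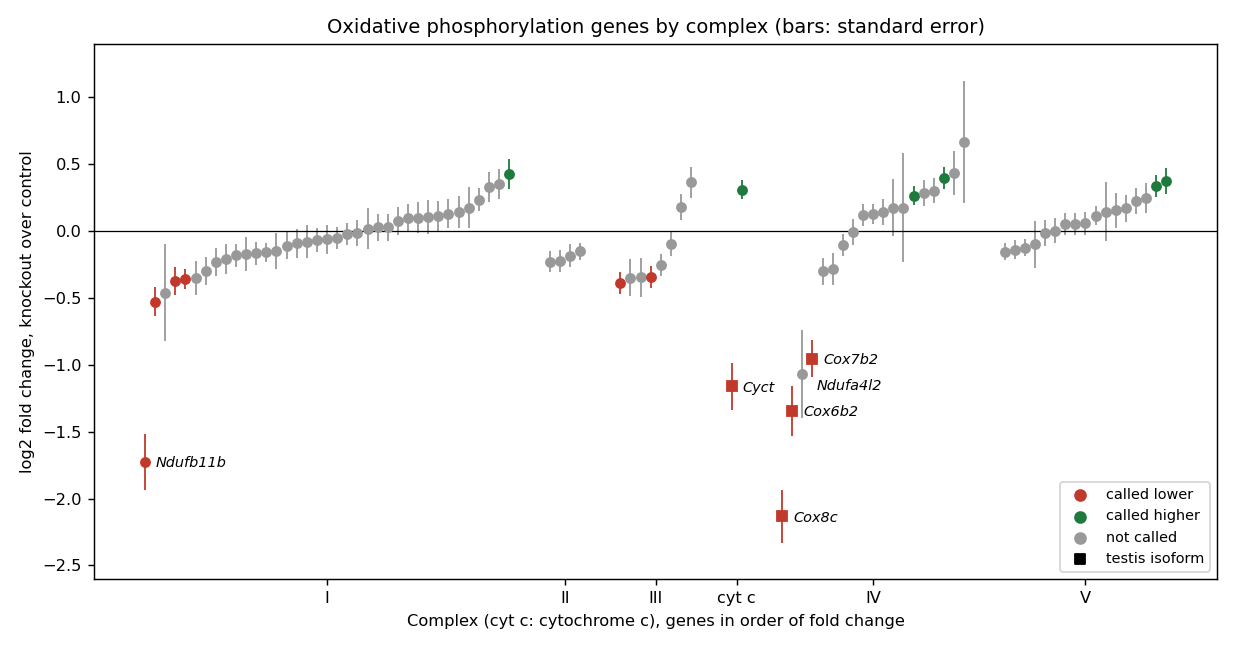
Log2 fold change (knockout over control, bars: standard error) of the 87 tested genes, grouped by complex and ordered within it, with called genes in colour and testis isoforms as squares. Apart from the testis isoforms, Ndufb11b and Ndufa4l2, the points lie between -0.53 (Ndufb5) and 0.67 (Cox5b-ps, not called).

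Complex I, the NADH dehydrogenase, had 4 falls (10.8%) and 1 rise (2.70%) among 37 genes, with a median of -0.06. Among all genes 13.5% fell and 3.28% rose. Besides Ndufb11b the falls were small. Ndufs1, the large iron-sulphur subunit of the matrix arm, had 2026 and 1979 in knockouts 1 and 3, against 2538 and 2598 in controls 1 and 2 (log2 fold change -0.36, limma Benjamini-Hochberg adjusted p = 0.0138). Ndufb5, a subunit of the membrane arm, had 846 and 756 in the knockouts, against 1081 and 1228 in the controls (-0.53, limma Benjamini-Hochberg adjusted p = 0.0133). Ndufb10, also of the membrane arm, had 1233 and 1119 in the knockouts, against 1414 and 1637 in the controls (-0.37, limma Benjamini-Hochberg adjusted p = 0.0436). The call of Ndufs1 was lost without any 1 library other than control 1, as was that of Ndufb10, and that of Ndufb5 without knockout 3 or control 2. Scaled by library totals, Ndufs1 and Ndufb10 were not called (limma Benjamini-Hochberg adjusted p = 0.0596 and 0.0958), nor was Ndufb10 by edgeR (Benjamini-Hochberg adjusted p = 0.0541).

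The rise in complex I was in a small membrane subunit. Ndufa1, which is X-linked, had 1776 and 1470 in knockouts 1 and 3, against 1146 and 1254 in controls 1 and 2 (log2 fold change 0.43, limma Benjamini-Hochberg adjusted p = 0.0322). Its call was lost without any 1 library other than knockout 3 (adjusted p between 0.136 and 0.235). The flavoprotein subunits that receive electrons from NADH were not called, with log2 fold changes of -0.16 for Ndufv1 and -0.35 for Ndufv2 (limma Benjamini-Hochberg adjusted p = 0.174 and 0.104). The other complex I genes lay between -0.46 for Ndufb2 and 0.35 for Ndufb11.

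Complex II, which links the citric acid cycle to the chain, had no call among its 4 genes by limma, edgeR or DESeq2, while 3 of them had an unadjusted limma p under 0.05. All 4 had both knockouts below both controls, as had 31.9% of all genes. Sdha, the flavoprotein subunit, had 5225 and 5247 in the knockouts, against 5817 and 5812 in the controls (log2 fold change -0.15, limma Benjamini-Hochberg adjusted p = 0.152). Sdhc, a membrane anchor, had 2602 and 2385 in the knockouts, against 2908 and 2936 in the controls (-0.23, limma Benjamini-Hochberg adjusted p = 0.0834). Replicates were close for Sdha, and the differences in this complex lay between -0.23 and -0.15 on the log2 scale.

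Complex III had 2 falls (25%, against 13.5% of all genes) and no rise among 8 genes, with a median of -0.30. The falls were in core proteins. Uqcrc1 had 3088 and 2887 in knockouts 1 and 3, against 3608 and 3968 in controls 1 and 2 (log2 fold change -0.34, limma Benjamini-Hochberg adjusted p = 0.0223), and Uqcrc2 had 2397 and 2187 in the knockouts, against 3036 and 2961 in the controls (-0.39, limma Benjamini-Hochberg adjusted p = 0.0124). Uqcrfs1, the Rieske iron-sulphur protein, stood at -0.25 and was not called (limma Benjamini-Hochberg adjusted p = 0.0676). Uqcr11, a small subunit, had 1938 and 1706 in the knockouts, against 1284 and 1553 in the controls, and lay the other way at 0.36 (limma Benjamini-Hochberg adjusted p = 0.0638). Uqcrc1 lost its call without any 1 library other than control 1 and by library totals (limma Benjamini-Hochberg adjusted p = 0.0687), and Uqcrc2 without any 1 library other than knockout 1.

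In complex IV, cytochrome c oxidase, the ubiquitous genes moved little, with a median of 0.14. Of these 12 genes, 2 rose (16.7%, against 3.28% of all genes) and none fell. Beside Cox8a the rise was in Cox6a1, with 4457 and 4161 in knockouts 1 and 3, against 3611 and 3557 in controls 1 and 2 (log2 fold change 0.26, limma Benjamini-Hochberg adjusted p = 0.0386), a call lost without any 1 library (adjusted p between 0.108 and 0.24). Cox4i1, the general form of subunit 4, had 4076 and 3527 in the knockouts, against 4291 and 5079 in the controls. Ndufa4 had 1385 and 1380 in the knockouts, against 1175 and 1069 in the controls. The log2 fold changes were -0.30 for Cox4i1, -0.29 for Cox7a2, -0.11 for Cox6c and 0.30 for Ndufa4, and none of them was called (limma Benjamini-Hochberg adjusted p = 0.0857, 0.143, 0.429 and 0.0579). Cox4i2, known from lung, had 21.0 and 29.7 in the knockouts, against 20.4 and 23.8 in the controls. Cox6a2, a heart and skeletal muscle isoform, reached at most 5.12 in the knockouts and at most 6.94 in the controls, and was too low to be tested. Cox7a1, the other heart and muscle isoform, had 337 and 225 in the knockouts, against 220 and 270 in the controls, and these ranges overlapped.

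Ndufa4l2, a paralog of Ndufa4 known to be induced by hypoxia, had 46.1 and 43.0 in the knockouts, against 70.8 and 126 in the controls. Its log2 fold change of -1.07 was of the size seen in the testis isoforms, but the controls differed from each other by 0.82 and the gene was not called (SE 0.33, limma Benjamini-Hochberg adjusted p = 0.0602).

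Complex V, the ATP synthase, had 2 rises (11.8%, against 3.28% of all genes) and no fall among 17 genes, with a median of 0.06. Atp5g1, one of the genes for the ring-forming subunit c, had 1814 and 1796 in knockouts 1 and 3, against 1449 and 1405 in controls 1 and 2 (log2 fold change 0.34, limma Benjamini-Hochberg adjusted p = 0.0237). Atp5mpl, a small associated subunit, had 2200 and 1877 in the knockouts, against 1517 and 1619 in the controls (0.37, limma Benjamini-Hochberg adjusted p = 0.0352). Both calls were lost without any 1 library. The catalytic subunit Atp5b had 14903 and 15033 in the knockouts, against 16074 and 17284 in the controls, and Atp5a1 had 12155 and 11393 in the knockouts, against 12899 and 12767 in the controls. Neither was called (log2 fold change -0.16 and -0.12, limma Benjamini-Hochberg adjusted p = 0.139 and 0.226).

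Core subunits lay mostly below 0 and accessory subunits on both sides of it, in a grouping made after the values were seen. The core group held the conserved subunits of complex I, all of complex II, Uqcrc1, Uqcrc2, Uqcrfs1 and the F1 subunits of complex V. All other ubiquitous genes were counted as accessory. These include Cycs, which is an electron carrier, and Atp5g1 of the subunit c ring, and both were called higher. The difference between the groups was not tested. Of the 19 core genes, 3 fell and none rose, and the median was -0.16. A negative log2 fold change was seen in 14 of them, and in 8448 of all 17480 genes tested. The falls were 15.8% of the core genes, against 13.5% of all genes. No core gene had an unadjusted limma p under 0.05 in the higher direction, and edgeR and DESeq2 called none higher. Of the 59 accessory genes, 2 fell (3.39%) and 6 rose (10.2%), against 13.5% and 3.28% of all genes, and the median was 0.05. By library totals the median of all ubiquitous genes was 0.10 and by Sertoli scaling -0.24, close to the shift of all genes in either case.

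Transcript length moved with this grouping. Members outside the testis isoforms with transcripts under 1 kb had a median log2 fold change of 0.06 (n = 55), and those between 1 and 3 kb a median of -0.16 (n = 26). Over the ubiquitous genes with a length, the Spearman correlation of log2 fold change with length was -0.43 across 77 genes, which share the same libraries and are not independent. Over 14505 other protein-coding genes it was -0.01, but the short ones among these were also higher, with a median of 0.07 under 1 kb (n = 1099) and 0.02 between 1 and 3 kb (n = 7176). Of the members under 1 kb 7.27% were called higher, against 8.19% of the other genes of that length. The shares called lower were 3.64% and 13.2%. The short members also differed between replicates, with a median of knockout 3 over knockout 1 of -0.18 and of control 2 over control 1 of 0.13, against -0.10 and 0.04 for the longer ones, and other genes under 1 kb had -0.12 and 0.06. The part of transcript length in these small differences was not tested. The testis isoforms are short, with lengths between 435 and 655 bases, and fell.

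**Figure D4:**
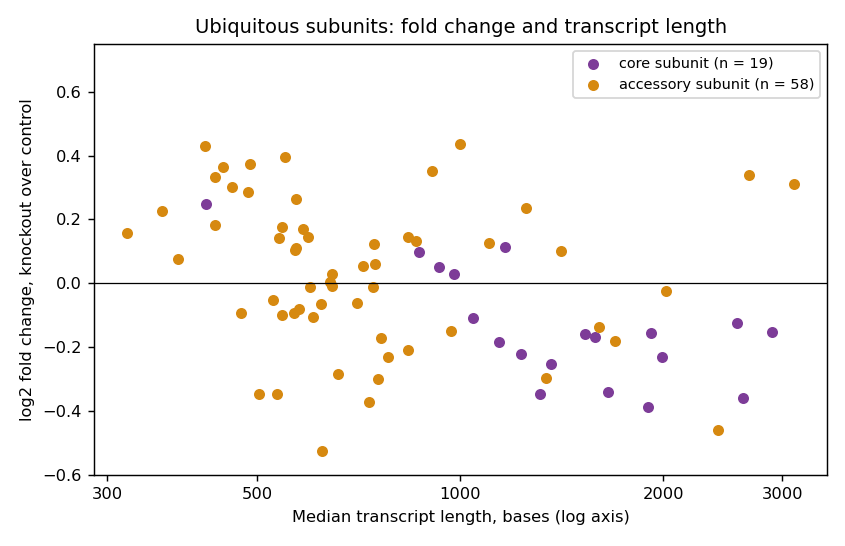
Log2 fold change of knockout over control against median transcript length (log axis) for the ubiquitous subunit genes, with 19 core and 58 accessory subunits. Cycs and the genes for subunit c are counted as accessory. Core subunits lie mostly below 0 and at lengths over 1 kb, while the values above 0.2 are mostly short accessory subunits.

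The rest of the respiratory machinery was looked at through lists. Of 13 subunits encoded by mitochondrial DNA, 8 were in the table and 7 were tested. None was called by limma, edgeR or DESeq2 or had an unadjusted limma p under 0.05, and the median was -0.06. The most abundant, mt-Co1, had 207093 and 194461 normalised counts in knockouts 1 and 3, against 207497 and 234173 in controls 1 and 2 (log2 fold change -0.14, limma Benjamini-Hochberg adjusted p = 0.255). Regulators of mitochondrial gene expression and biogenesis, such as Nrf1, Gabpa and Tfam, were also free of calls among 14 tested by all 3 tools, with none at an unadjusted limma p under 0.05 and a median of 0.06.

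Assembly factors fell in 3 of 49 (6.12%, against 13.5% of all genes), with none called higher by any of the 3 tools, 4 at an unadjusted limma p under 0.05 in that direction and a median of 0.02. Ndufaf3, an assembly factor of complex I, had 1009 and 784 normalised counts in knockouts 1 and 3, against 1909 and 2836 in controls 1 and 2 (log2 fold change -1.39, limma Benjamini-Hochberg adjusted p = 0.00163). Its call held without each library in turn. Ndufaf2, also of complex I, stood at -0.53 and Coa5, of complex IV, at -0.34 (limma Benjamini-Hochberg adjusted p = 0.0291 and 0.0171). Coa5 lost its call without any 1 library, and Ndufaf2 without any 1 library other than knockout 1. By library totals neither was called (limma Benjamini-Hochberg adjusted p = 0.0790 for Coa5 and 0.0511 for Ndufaf2).

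Enzymes of the citric acid cycle and pyruvate dehydrogenase fell in 4 of 18 (22.2%, against 13.5% of all genes), with a median of -0.16, none called higher by any of the 3 tools and 1 at an unadjusted limma p under 0.05 in that direction. Pdha2, the autosomal testis form of the pyruvate dehydrogenase subunit whose somatic gene Pdha1 is X-linked, had 1174 and 994 in knockouts 1 and 3, against 2561 and 3071 in controls 1 and 2 (log2 fold change -1.38, limma Benjamini-Hochberg adjusted p = 0.000293). Pdha1 stood at 0.13 and was not called (limma Benjamini-Hochberg adjusted p = 0.528). Dlat, of the same enzyme complex, had 1702 and 1627 in the knockouts, against 2963 and 3123 in the controls (-0.87, limma Benjamini-Hochberg adjusted p = 0.000345). Sucla2, a succinyl-CoA ligase subunit, stood at -0.62 (limma Benjamini-Hochberg adjusted p = 0.00317), and without control 2 that call was lost (0.0739). Of the listed mitochondrial carriers and outer membrane channels, 1 of 8 was called, as lower (12.5%, against 13.5% of all genes). It was Vdac2 at -0.43 (limma Benjamini-Hochberg adjusted p = 0.0236), a call lost without knockout 1, knockout 3 or control 2. Slc25a31, the germ cell ADP/ATP carrier, stood at -0.25 and Slc25a4, of heart and muscle, at 0.25, with neither called (limma Benjamini-Hochberg adjusted p = 0.0829 and 0.0671).

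Markers of the cell types in the tissue were looked at too, in lists chosen with earlier results of these data known. Among all genes 13.5% fell and 3.28% rose. Pachytene spermatocyte markers fell in 16 of 19 tested (84.2%) of 20 listed, with a median of -1.72. Their summed normalised counts were 19336 and 15693 in knockouts 1 and 3, against 55922 and 81900 in controls 1 and 2, and control 2 stood above control 1 as it did for the testis isoforms. Early prophase markers fell in 5 of 17 (29.4%) with a median of -0.18. Spermatogonia markers rose in 4 of 14 (28.6%) and fell in 1 (7.14%) with a median of 0.24, while edgeR called 3 higher and DESeq2 2. Sertoli cell markers rose in 7 of 24 (29.2%) with a median of 0.26. Their sums were 180177 and 170788 in the knockouts, against 153261 and 146775 in the controls. The part of the cell makeup in the falls of the testis isoforms and in the higher values of their counterparts was not tested.

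The other cell types had few calls. Spermatid markers were tested for 6 of 17 listed, of which 1 fell (16.7%, against 13.5% of all genes), and Prm3 had reads only in control 2. Leydig cell markers had 1 rise among 10 (10%, against 3.28% of all genes), which DESeq2 did not call. Some of them differed widely between replicates of a group. Cyp17a1 had 1104 and 332 in knockouts 1 and 3, against 284 and 1493 in controls 1 and 2. With an SE of 0.73 on the log2 scale, its lack of a call says little. Red blood cell markers had 3 rises among 5 by limma (60%, against 3.28% of all genes) and edgeR, and 2 by DESeq2. Their summed counts were 1855 and 2321 in the knockouts, against 1452 and 1207 in the controls. Markers of peritubular myoid cells, macrophages and endothelium had no call among 7, 8 and 8 genes by limma, edgeR or DESeq2, and none had an unadjusted limma p under 0.05. Their median log2 fold changes were 0.06, 0.13 and 0.15.

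**Figure D5:**
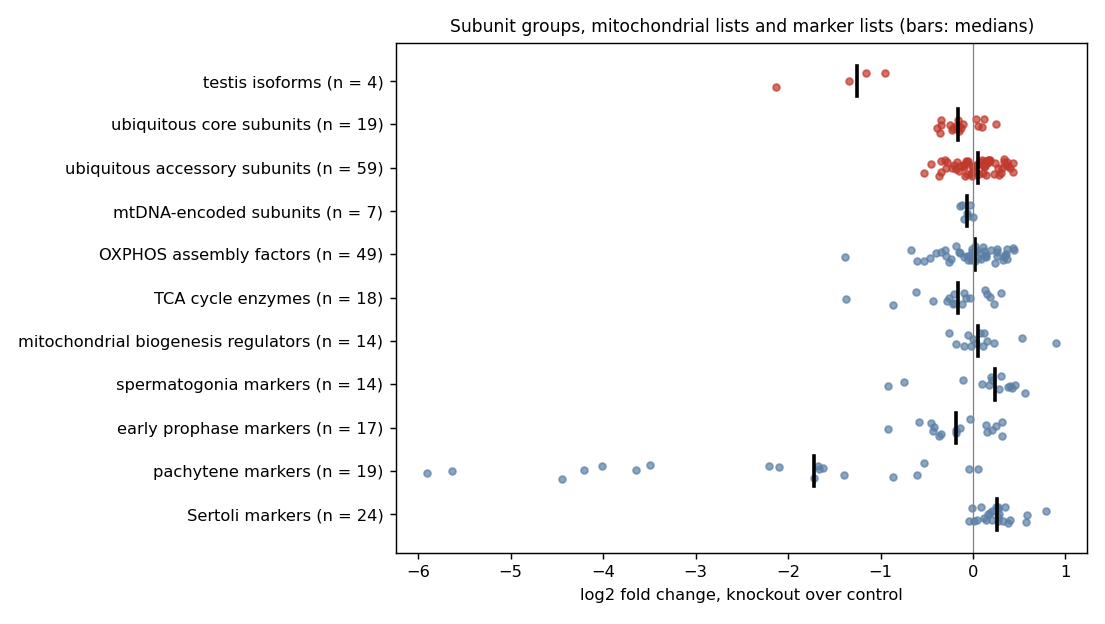
Log2 fold change of knockout over control for each tested gene of the subunit groups (red) and of the mitochondrial and marker lists (blue), with black bars at the medians. The testis isoforms, with a median of -1.25, lie beside the pachytene markers at -1.72, while the core, accessory and mitochondrially encoded subunits lie near 0.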

How the data were processed

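Per the labels' protocols, NEBNext Ultra libraries were made from total RNA. Bowtie2, cutadapt, DESeq2, featureCounts and mm39 are named in the submitters' processing notes, while the sources used here give no versions, settings, strand or annotation. The deposited signal per library is a read count divided by 1 size factor, by the authors: within 1e-06, all values in the 4 libraries were whole multiples of the library's smallest value, which recovered whole reads for 100% of values. The deposited table also has the authors' log2 fold changes with standard errors, test score, p-values and adjusted p-values, per the file headers.

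The main test was limma 3.58.1 (R 4.3.3) on log2(value + 1), with the variance trended on mean level and a minimum mean of 10 per gene, and with 6.3 prior and 2 residual degrees of freedom. Such fold changes understate the change of low genes. The design named edgeR for a table of counts. edgeR 4.0.16 and DESeq2 1.42.0 on recovered reads were alternatives, and the limma fit was tested on simulated data. Transcript lengths came from GENCODE M21 and matched 87 of 88 members. The members and lists were chosen with earlier results of these data known. Genes named are the isoforms and their paralogs, called members, and up to 3 called genes per list. The 2 most abundant and the extreme members of each complex are also named. Ndufb11b's pairing, Ndufb11, Uqcrfs1, Ndufb2, Pdha1, mt-Co1, Slc25a4, Slc25a31, Prm3, Cyp17a1 and the regulators were named after their values were seen. Replicates differed by more than sampling noise in the knockouts and in the controls (chi-square per degree of freedom 4.73 and 13.2).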

Additional observations from a re-analysis of the deposited data

How the results depend on the processing

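No paired analysis was possible because the analysed libraries share only replicate number 1 between the groups (knockouts 1 and 3, controls 1 and 2). Against 10 members called lower and 6 higher, Sertoli marker scaling called 33 and 0, library totals 7 and 14, no filter on low values 2 and 0, and no mean-variance trend 0 and 0. At an unadjusted limma p under 0.05 the higher counts were 0 with Sertoli scaling, 13 without the filter and 4 without the trend, and the lower count without the trend was 10. Leaving out 1 library gave 3 to 9 members lower, with 3 without control 2 and 5 without knockout 3, and 0 to 1 higher, with 0 without knockout 1 or control 2 (4 and 12 at an unadjusted p under 0.05) and 1 without knockout 3 or control 1. Over all genes, 2366 lower and 573 higher became 4414 and 73 with Sertoli scaling, 815 and 37 without the filter, and 40 and 0 without the trend (1456 higher at an unadjusted limma p under 0.05). Library totals called 1513 genes higher. Leaving out 1 library gave 889 to 2096 lower and 31 to 337 higher. The cause of these shifts was not tested.

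Without the filter, the calls of Cox8c and Ndufb11b were kept. Of the 71 uncalled members, 13 changed sign by library totals, 25 with Sertoli scaling, 3 with TMM factors, 3 by edgeR and 5 to 10 with 1 library left out. Among those named, Cox4i2 stood at -0.040 with Sertoli scaling and between -0.062 and 0.42 with 1 library left out, Cox7a1 at -0.049 with Sertoli scaling and between -0.11 and 0.47 with 1 library left out, and Cox6c at 0.0036 by library totals. No called member changed sign under any of these alternatives. Over the alternatives, called members kept their call 146 times and lost it 78 times. Uncalled members gained a call as higher by library totals (8), and as lower with Sertoli scaling (23) and without knockout 1 (1). Where a library is left out, the lone one is assumed to vary like the other group.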
